A study of Rattus norvegicus with 6 samples.

Results

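The keratin and desmosome genes of rat endometrial epithelial organoids (rEEOs) were measured by bulk RNA-seq in 3 libraries of rEEOs and in 3 libraries of bone marrow mesenchymal stem cells (rBMSCs). Genes were taken by symbol: the keratins, Krtcap3, the desmosomal cadherins and plaque proteins (Dsc, Dsg, Dsp, Jup, Pkp, Ppl, Evpl, Perp), the transglutaminases, the cornified envelope genes (Sprr, Sbsn, Ivl, Cdsn), Trim29 and Tp63. In the table analysed, 56 rows had such a symbol, and the 43 with at least 10 reads over the 6 libraries are described here, out of 11918 genes with that many reads and 13728 genes in all. The rule used no comparison between the cell types. Of the 43 genes, 20 were keratins, 10 of type I and 10 of type II. The other 13 symbols (Krt4, Krt20, Krt36, Krt42, Krt82, Krt84, Krt85, Dsc1, Ivl, Sprr3, Tgm3, Tgm4 and Tgm6) had at most 9 reads in all, with at most 1 in any rBMSCs library.

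The rEEOs were grown from glandular fragments of uteri of female Sprague-Dawley rats aged 5 weeks, in Matrigel, with a medium containing EGF, FGF10, noggin, R-spondin-1, Wnt3a, the TGF-beta receptor inhibitor A83-01 and the ROCK inhibitor Y-27632. The rBMSCs were purchased cells carrying a red fluorescent protein, grown in DMEM/F12 with serum, so cell type and culture conditions differed together and cannot be told apart. The sources used here give neither the sex nor the age of the rBMSCs donors, nor whether the 3 libraries of a cell type came from separate animals or cultures, so p-values measure the spread between these libraries, which may be technical.

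Keratins are intermediate filament proteins that assemble only as pairs of an acidic type I and a basic type II chain. Single-layered (simple) epithelia such as uterine glands use Krt8 with Krt18 and, in many ducts and glands, Krt7 with Krt19, while the basal cells of stratified epithelia use Krt5 with Krt14 or Krt15. Desmosomes tie these filaments to the cell surface: desmocollins and desmogleins bridge neighbouring cells, plakoglobin (Jup) and the plakophilins bind their tails, and desmoplakin (Dsp) links the plaque to keratin. In squamous cells, transglutaminases crosslink periplakin, envoplakin and small proline-rich proteins into the cornified envelope, and Tp63 is the transcription factor that defines basal epithelial cells.

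All 10 type II keratin genes lay on chromosome 7, and 9 of the 10 type I genes on chromosome 10, with Krt18 on chromosome 7 beside its partner Krt8 (RefSeq annotation of GRCr8). The 300 bases around the annotated start are shown, 5′ to 3′, for 5 genes on which the results turn: the partners Krt8 and Krt18, the most abundant keratins of the organoids; Krt5, the keratin read almost only in 1 organoid library; and the neighbouring genes Dsc2 and Dsc3, of which the former was read in every organoid library and the latter in only 1. Sequences and coordinates are those of RefSeq for GRCr8. Capitals mark matches on either strand to the TATA box, searched as TATAAA, to the GC box bound by Sp factors, searched as GGGCGG, to the AP-1 motif, searched as TGANTCA, and to a single decamer of the response element of the p53 family, to which Tp63 belongs; a full element holds a pair of decamers.
Krt8 (chr7:135010290-135010589, minus strand): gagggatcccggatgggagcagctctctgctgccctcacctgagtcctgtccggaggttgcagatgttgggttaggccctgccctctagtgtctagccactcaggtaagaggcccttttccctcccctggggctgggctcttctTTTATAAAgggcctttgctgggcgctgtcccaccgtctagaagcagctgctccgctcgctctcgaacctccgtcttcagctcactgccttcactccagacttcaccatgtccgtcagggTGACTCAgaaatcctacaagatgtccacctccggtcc
Krt18 (chr7:135035918-135036217, plus strand): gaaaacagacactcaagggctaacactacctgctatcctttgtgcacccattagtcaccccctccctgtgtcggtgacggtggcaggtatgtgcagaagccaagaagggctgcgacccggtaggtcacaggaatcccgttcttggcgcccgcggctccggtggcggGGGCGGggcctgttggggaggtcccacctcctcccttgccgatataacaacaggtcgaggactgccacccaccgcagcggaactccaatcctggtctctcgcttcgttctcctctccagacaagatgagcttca
Krt5 (chr7:134730520-134730819, minus strand): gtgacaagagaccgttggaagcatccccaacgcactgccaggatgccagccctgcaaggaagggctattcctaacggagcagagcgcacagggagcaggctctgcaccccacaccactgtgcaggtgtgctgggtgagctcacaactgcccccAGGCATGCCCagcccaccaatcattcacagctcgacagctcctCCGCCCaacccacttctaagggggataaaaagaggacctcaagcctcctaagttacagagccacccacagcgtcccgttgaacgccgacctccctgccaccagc
Dsc2 (chr18:11757417-11757716, minus strand): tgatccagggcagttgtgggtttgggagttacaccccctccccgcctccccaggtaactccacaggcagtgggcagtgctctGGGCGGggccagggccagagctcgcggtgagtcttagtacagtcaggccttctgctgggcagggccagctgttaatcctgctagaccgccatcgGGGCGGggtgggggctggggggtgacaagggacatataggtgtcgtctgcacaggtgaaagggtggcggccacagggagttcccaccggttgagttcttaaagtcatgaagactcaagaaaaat
Dsc3 (chr18:11688822-11689121, minus strand): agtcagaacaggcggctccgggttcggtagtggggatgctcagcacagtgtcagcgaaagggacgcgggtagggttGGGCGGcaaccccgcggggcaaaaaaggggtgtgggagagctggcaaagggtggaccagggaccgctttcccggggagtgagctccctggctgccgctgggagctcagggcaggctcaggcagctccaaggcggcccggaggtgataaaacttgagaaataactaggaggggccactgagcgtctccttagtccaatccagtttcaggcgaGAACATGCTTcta
In Krt8, TATAAA was found on both strands as overlapping matches, the one on the gene's strand from base -104 to -99 of the annotated start, and TGANTCA, which reads the same on both strands, at bases 14 to 20. From its annotated start the Krt8 window reads atg, so this start may be that of the coding sequence. Positions in Krt8 are therefore not distances from a known start of transcription, and its TGANTCA match may lie in coding sequence. Krt18 held GGGCGG at -84 to -79, and Dsc2 held it at -168 to -163 and at -74 to -69. Krt5 held a p53-family decamer at -97 to -88 and GGGCGG, on the other strand, at -54 to -49. Dsc3 held GGGCGG at -174 to -169 and a p53-family decamer at bases 38 to 47. Over 33469 promoter windows of this length, 14.2% held TATAAA, 33.1% GGGCGG, 7.33% TGANTCA and 7.98% a p53-family decamer, compared to 5, 15, 4 and 4 of the 27 genes described here that had an entry. A match is a description of these letters and not of binding.

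Reads summed to between 10457958 and 15421501 per library. The epithelial markers were read in rEEOs only: all 8 (among them Epcam, Cldn3, Cldn4 and Elf3) had no read in any rBMSCs library and were called higher in rEEOs. They could be tested only through their reads in rEEOs, so these calls are descriptions. Of 7 mesenchymal stem cell markers 6 were called lower (Col1a1, Col3a1, Vim and Thy1 among them), and Nt5e, a defining marker, was low in both, between 0.69 and 1.23 TPM, a level scaled by transcript length and library, in rBMSCs and between 0.03 and 0.44 in rEEOs. Thy1, Col3a1 and Pdgfrb had at most 3 reads in any rEEOs library, so they could be tested only through rBMSCs. One library stood apart. The spread between replicates, as the median SD of log2(CPM + 1) over genes (CPM, reads scaled to library size), was 0.0878 in rBMSCs, 0.340 in rEEOs and 0.164 in rEEOs without replicate 1; over the 26 tested genes of the set it was 0.0772, 0.346 and 0.162. In rEEOs replicate 1 the basal or squamous markers held (Krt5, Krt14, Krt15, Tp63 and Trim29) summed to 187 TPM, compared to 3.28 and 3.80 TPM in replicates 2 and 3 and between 0.21 and 0.28 TPM in rBMSCs. The 6 macrophage markers summed to at most 1.64 TPM in any library, and none was read often enough to be tested. Results that rest on rEEOs replicate 1 are given with and without it.

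The question put to every gene was whether rEEOs differed from rBMSCs. The test was edgeR's quasi-likelihood test over 10607 genes, those that reached 10 counts in 3 libraries or more, and a gene was called where its adjusted p was below 0.05 and its log2 fold change exceeded 2 in size. Of the 43 genes 26 were tested. Of these 22 were called higher in rEEOs, where 16.3% of all genes tested were, and 0 were called lower, where 13.3% of all genes were. By edgeR and by DESeq2 alike, 0 of the 26 were lower at an unadjusted p under 0.05. Krt10 and Tgm7 passed the adjusted p with a smaller fold, so 24 of 26 passed it, compared to 63.4% of all genes in either direction, and Pkp1 and Tp63 did not pass. The median log2 fold change was 8.56 over the 26 and 0.08 over all genes tested. However, 16 of the 26 had under 10 reads in every rBMSCs library, so they could pass the filter only by being high in rEEOs and had to differ. Of the other 10, 6 were called higher, and 2 passed the adjusted p with a smaller fold.

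Over all 43 genes, tested or not, the TPM values of the 3 rEEOs libraries all lay above those of the 3 rBMSCs libraries for 30 of the 43 genes, compared to 31.6% of genes with 10 reads, and the groups overlapped for 13. The minimum of 10 reads over the 6 libraries had already left out scarcer genes, so a member without reads in rBMSCs was kept only through its reads in rEEOs, and this count is a description. No read was found in any rBMSCs library for 20 of the 43 genes, compared to 906 of 11918 genes. In bulk RNA, a difference in the number of cells carrying a transcript and in its amount per cell cannot be told apart.

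The 4 simple epithelial keratins made up nearly all of the RNA of the 20 keratins held. Krt8, the type II chain of simple epithelia, was at 1228, 982 and 1234 TPM in rEEOs replicates 1, 2 and 3 and at 2.82, 2.77 and 2.43 TPM in rBMSCs. The groups were far apart and rBMSCs held a low level of Krt8 in every library. The log2 fold change was 9.00 (SE 0.25, adjusted p = 4.59e-06, edgeR). Krt18, its type I partner, was at 969.8, 912 and 1153 TPM in rEEOs, while a single read was found in the 3 rBMSCs libraries, at 0, 0.08 and 0 TPM. Krt8 thus was the one of the pair that was read in each rBMSCs library. Pooled over libraries, the ratio of normalised Krt18 reads was 40995 (95% exact interval from 7357 to 1619259, counting error only; adjusted p = 7.54e-06, edgeR).

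Krt19, the smallest type I keratin, was at 587, 623 and 692 TPM in rEEOs and had no read in rBMSCs, at least 2980-fold higher against 3 counts in each rBMSCs library (adjusted p = 5.10e-05, edgeR). Krt7, the type II keratin of ducts and glands, was at 795, 409.7 and 425 TPM in rEEOs and at 0.05, 0.15 and 0.11 TPM in rBMSCs, on 6 reads in all. Krt7 was highest in rEEOs replicate 1, whereas Krt18 and Krt19 were highest in replicate 3. The ratio of pooled Krt7 reads was 6194 (95% exact interval from 2845 to 16879, counting error only; adjusted p = 4.59e-06, edgeR). Mean levels in rEEOs were 1148 ± 144 TPM for Krt8, 1012 ± 126 for Krt18, 634 ± 53.1 for Krt19 and 543 ± 218 for Krt7 (SD, n = 3). The means of Krt8 and Krt18 differed by less than the SD of Krt8, and those of Krt19 and Krt7 by less than the SD of Krt7, whereas every Krt18 value lay above every Krt19 value.

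**Figure D1:**
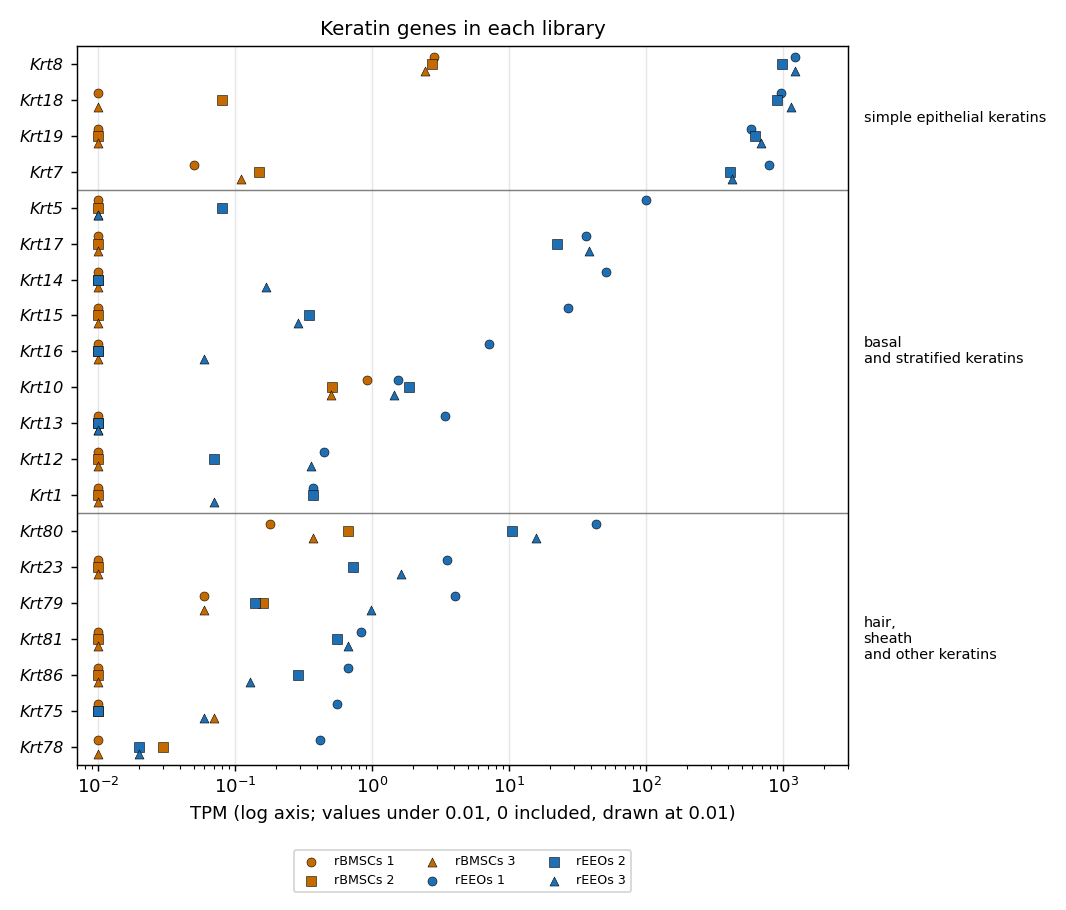
TPM (log axis) of the 20 keratin genes in each of the 6 libraries, by class, with rBMSCs in orange and rEEOs in blue and the replicate number given by the symbol; values under 0.01 are drawn at 0.01. Krt8, Krt18, Krt19 and Krt7 lie between 409.7 and 1234 TPM in all rEEOs libraries, while Krt5, Krt14, Krt15, Krt16 and Krt13 are high in rEEOs replicate 1 (circles) alone.

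Summed over the 20 genes, keratins came to 3861, 2964 and 3563 TPM in rEEOs replicates 1, 2 and 3 (mean 3463) and to 4.03, 4.37 and 3.54 TPM in rBMSCs. The simple keratins held 92.7%, 98.7% and 98.3% of the rEEOs sum. Type I chains summed to 1688, 1560 and 1887 TPM and type II chains to 2173, 1404 and 1676 TPM, so type II over type I was 1.29 in replicate 1 and 0.900 and 0.888 in replicates 2 and 3. Within the pair of Krt8 and Krt18, Krt8 over Krt18 was 1.27, 1.08 and 1.07. Krt7 lay above its partner Krt19 in replicate 1 (795 against 587 TPM). In replicates 2 and 3 Krt7 lay below it (409.7 against 623 and 425 against 692 TPM). Between the type I chains, Krt19 over Krt18 was 0.605, 0.683 and 0.600. Krt7 over Krt8 was 0.647 in replicate 1, compared to 0.417 and 0.344 in replicates 2 and 3. The sums are descriptions and were not tested.

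**Figure D2:**
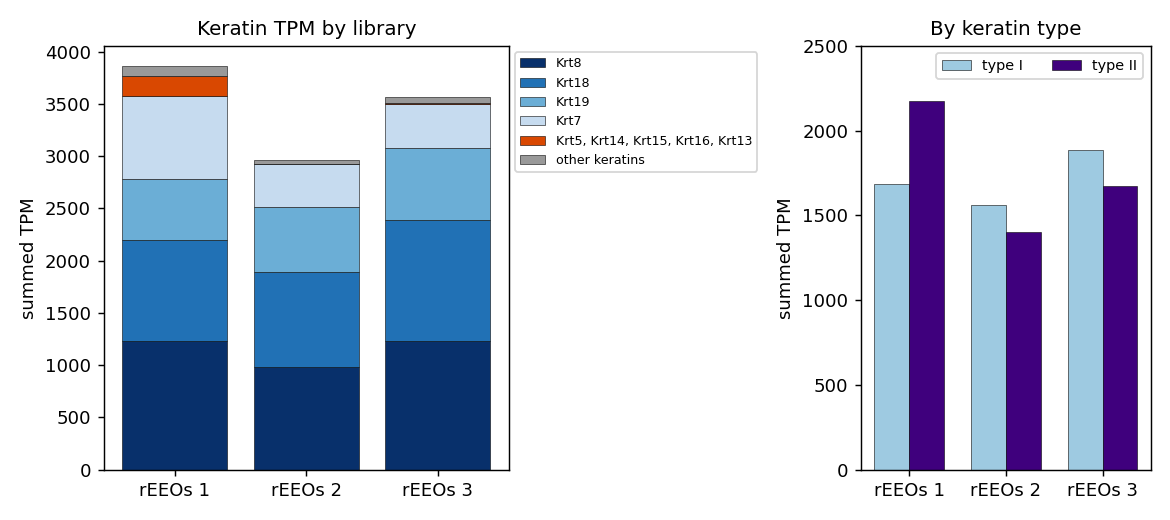
Left, summed TPM of the keratins in each rEEOs library, stacked by gene; right, the same sums by keratin type. Krt8, Krt18, Krt19 and Krt7 fill the bars, and the orange segment of Krt5, Krt13, Krt14, Krt15 and Krt16 is 4.91% of replicate 1, 0.0145% of replicate 2 and 0.0146% of replicate 3.

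Among the 9 keratins of basal and stratified epithelia, Krt17 and Krt10 were tested. Krt17, a type I keratin of basal-like and stressed epithelial cells, was at 36.4, 22.6 and 38.4 TPM in rEEOs with no read in rBMSCs, at least 167-fold higher (adjusted p = 0.000126, edgeR). Its 3 rEEOs libraries lay close together, and replicate 1 was not the highest. Krt10, a keratin of differentiating epidermal cells, was low in both cell types, at 1.55, 1.87 and 1.45 TPM in rEEOs and at 0.92, 0.51 and 0.50 TPM in rBMSCs. The groups did not overlap, and the log2 fold change of Krt10 was 1.62 (SE 0.38, adjusted p = 0.00939, edgeR).

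The other stratified keratins divided the organoid libraries. Krt5, the type II keratin of basal cells, was at 101 TPM (1312 reads) in rEEOs replicate 1, at 0.08 TPM (1 read) in replicate 2 and at 0 in replicate 3. Its type I partner Krt14 was at 51.3 TPM (733 reads), 0 and 0.17 TPM (2 reads). Krt15, another type I partner in basal cells, was at 27.0, 0.35 and 0.29 TPM, on 466, 6 and 5 reads. None of these genes had a read in rBMSCs, and replicate 1 was the only library with more than 6 reads of any of them. Krt16, a type I keratin induced in activated epidermis, was at 7.13, 0 and 0.06 TPM (115, 0 and 1 reads). Krt13, of internal stratified epithelia, was at 3.43 TPM (44 reads), 0 and 0 TPM. Both followed the same library. Against 3 counts in replicates 2 and 3, replicate 1 was at least 311-fold higher for Krt5, 174-fold for Krt14, 27.2-fold for Krt16 and 10.4-fold for Krt13 in CPM.

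Between-library jumps of this size were rare. With 3 counts as the floor, 47 of 11918 genes (0.394%) were at least 10-fold higher in rEEOs replicate 1 than in both other rEEOs libraries, and 9 of the 43 genes described here were among them (20.9%): Krt5, Krt13, Krt14, Krt15, Krt16, Dsc3, Dsg1, Sprr1a and Tp63. The same count was 3 genes for replicate 2 and 13 for replicate 3, with 0 of the 43 in either. Of the 47 genes 38 were outside the set, and 26 had no read in any rBMSCs library. Genes read almost only in replicate 1 met the minimum of 10 reads through that same library. These counts are therefore descriptions of single libraries and were not tested. The 9 genes had effective transcript lengths between 0.227 and 2.54 times that of the median gene (median 0.577). In the promoter windows, 5 of the 9 had an entry. Of these, 3 held GGGCGG, 2 a p53-family decamer (Krt5 and Dsc3), 1 TATAAA and 1 TGANTCA. The shares over all windows were 33.1%, 7.98%, 14.2% and 7.33% in the same order.

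**Figure D3:**
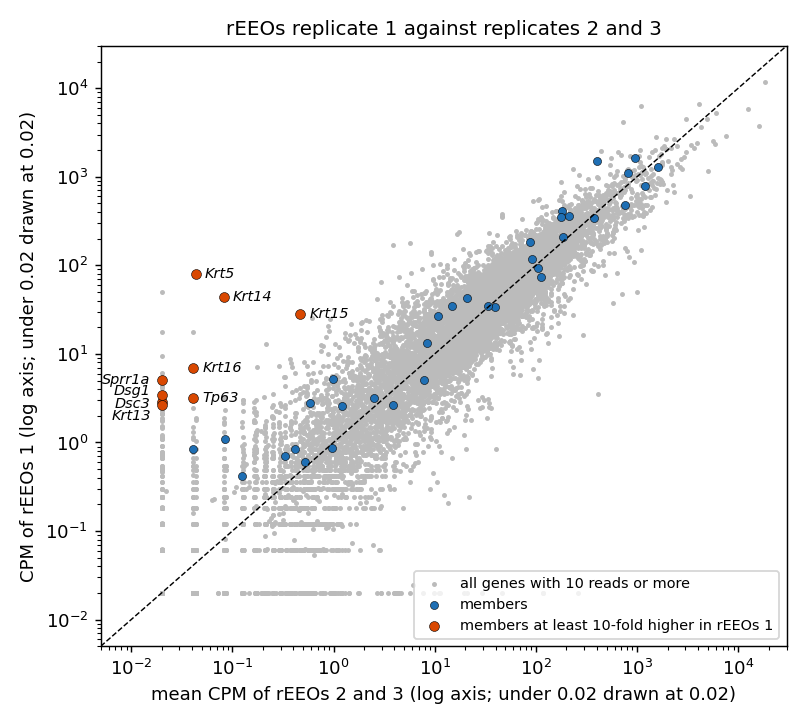
CPM of rEEOs replicate 1 (vertical) against the mean CPM of replicates 2 and 3 (horizontal), both on log axes with values under 0.02 drawn at 0.02, for the 11918 genes with 10 reads (grey), the genes described here (blue) and the 9 of them at least 10-fold higher in replicate 1 (orange, named). The dashed line marks equality, and Krt5 and Krt14 lie farthest above it among the named genes.

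With a filter too strict for genes read in 1 library, none of Krt5, Krt13, Krt14, Krt15 and Krt16 was tested between cell types. When every gene with at least 1 count in any library was tested, their log2 fold changes did not pass: the adjusted p was 0.0963 for Krt5, 0.0926 for Krt14, 0.0570 for Krt15, 0.10 for Krt16 and 0.132 for Krt13 (edgeR). Without rEEOs replicate 1, a setting chosen after the data were seen, Krt15 passed (adjusted p = 0.0159, edgeR), on the 6 and 5 reads of the libraries left. Of the 17 genes not tested under the stricter filter, 6 passed the adjusted p with the looser one, namely Krt1, Krt12, Krt23, Krt79, Krt86 and Sbsn, and when replicate 1 was left out as well 5 passed, namely Krt1, Krt15, Krt23, Krt79 and Krt86. Krt1 and Krt12 were scarce, at 0.37, 0.37 and 0.07 TPM and at 0.45, 0.07 and 0.36 TPM in rEEOs, with no read in rBMSCs.

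Of the 7 hair, sheath and other keratins, Krt80 was the most abundant. This type II keratin, found near desmosomes in many epithelia, was at 43.0, 10.6 and 15.7 TPM in rEEOs and at 0.18, 0.67 and 0.37 TPM in rBMSCs. Replicate 1 was the highest of the rEEOs libraries and all 3 lay above rBMSCs. The log2 fold change of Krt80 was 5.91 (SE 0.63, adjusted p = 0.000332, edgeR), and the ratio of pooled reads was 66.3 (95% exact interval from 39.3 to 122, counting error only). The hair keratin Krt81 was called higher on 10.4 to 14.2 expected counts per rEEOs library. Its counts were not whole, nor were those of the near-identical Krt86, so both held reads shared with similar transcripts. Which genes shared these reads was not examined, so the level of either gene is uncertain. Krt23 was at 3.52, 0.73 and 1.63 TPM in rEEOs with no read in rBMSCs. Krt79 was at 4.04, 0.14 and 0.98 TPM in rEEOs and at most at 0.16 in rBMSCs, and the groups overlapped. Krt75 and Krt78 did not exceed 0.56 TPM in any library, and their highest values were in rEEOs replicate 1.

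Desmosomal cadherins were read in rEEOs and not in rBMSCs. Dsc2, the desmocollin of simple epithelia, was at 45.5, 20.6 and 23.4 TPM in rEEOs, and its desmoglein counterpart Dsg2 was at 44.3, 13.5 and 16.6 TPM. Neither had a read in rBMSCs, and Dsc2 was at least 447-fold (adjusted p = 3.69e-05, edgeR) and Dsg2 at least 528-fold higher (adjusted p = 0.000298, edgeR). Both were highest in replicate 1, and without it the bounds were 408-fold and 385-fold. The cadherins of stratified epithelia behaved otherwise: Dsc3 was at 0.90 TPM (48 reads) and Dsg1 at 0.80 TPM (57 reads) in replicate 1, and neither had a read in any other library of either cell type. In CPM, replicate 1 was at least 11.4-fold above replicates 2 and 3 for Dsc3 and at least 13.5-fold for Dsg1. Dsc2 and Dsc3 are neighbouring genes in GRCr8, with their windows printed above.

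Of the 9 plaque genes 8 were called higher in rEEOs, where 16.3% of all genes tested were. However, Perp, Ppl, Pkp3 and Dsp had under 10 reads in every rBMSCs library, so the filter fixed their direction. Among the plaque genes read in both cell types, Jup, Pkp2, Pkp4 and Evpl were called and Pkp1 was not. Perp, a membrane protein of desmosomes, had the highest mean, at 284, 215 and 225 TPM in rEEOs with no read in rBMSCs (at least 1616-fold higher, adjusted p = 1.47e-05, edgeR). Dsp, the linker from the plaque to keratin, was at 49.8, 16.1 and 22.3 TPM and the plakophilin Pkp3 at 38.3, 35.3 and 28.9 TPM, again with no read in rBMSCs. The bounds were at least 1036-fold for Dsp (adjusted p = 0.000208, edgeR) and at least 452-fold for Pkp3 (adjusted p = 3.24e-05, edgeR). The periplakin gene Ppl, whose product joins plaques and the cornified envelope to filaments, was at 348, 168 and 125 TPM in rEEOs and at 0.05, 0.03 and 0.06 TPM in rBMSCs. The ratio of pooled Ppl reads was 5447 (95% exact interval from 2869 to 11912, counting error only; adjusted p = 9.21e-06, edgeR).

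Other plaque genes were read in both cell types. Jup, which serves desmosomes and adherens junctions alike, was at 93.5, 56.4 and 61.1 TPM in rEEOs and at 3.12, 4.06 and 3.48 TPM in rBMSCs (log2 fold change 4.49, SE 0.18, adjusted p = 9.46e-06, edgeR). Pkp2 was at 25.1, 17.4 and 17.0 TPM and at 1.76, 1.12 and 1.73 TPM, a log2 fold change of 3.92 (SE 0.22, adjusted p = 2.54e-05, edgeR). For both, the groups were well apart in every library. Pkp4, an armadillo protein also found at adherens junctions, was at 114, 34.3 and 38.9 TPM in rEEOs and, highest among the plaque genes of rBMSCs, at 14.8, 13.6 and 15.04 TPM. Its log2 fold change was 2.22 (SE 0.35, adjusted p = 0.00186, edgeR), and 1.74 without rEEOs replicate 1, below the threshold of 2. The envoplakin gene Evpl, partner of Ppl in the cornified envelope, was at 9.57, 3.48 and 3.09 TPM and at 0.97, 0.96 and 0.92 TPM, a log2 fold change of 2.64 (SE 0.35, adjusted p = 0.000902, edgeR). Ppl and Evpl thus differed in rBMSCs, where Evpl was read in every library on 55 to 64 reads and Ppl on 2 to 4.

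Pkp1, the plakophilin of stratified epithelia, did not pass. It was at 7.72, 1.3 and 3.26 TPM in rEEOs and at 3.86, 4.09 and 4.75 TPM in rBMSCs. The rEEOs libraries lay on both sides of the rBMSCs libraries, replicate 1 above and replicates 2 and 3 below. Its log2 fold change was 0.07 (SE 0.47, adjusted p = 0.899, edgeR) and -0.47 without replicate 1 (adjusted p = 0.263, edgeR). Over the 4 cadherins and 9 plaque genes, desmosomal TPM summed to 1062, 581 and 565 in rEEOs and to 24.6, 23.9 and 26.0 in rBMSCs.

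**Figure D4:**
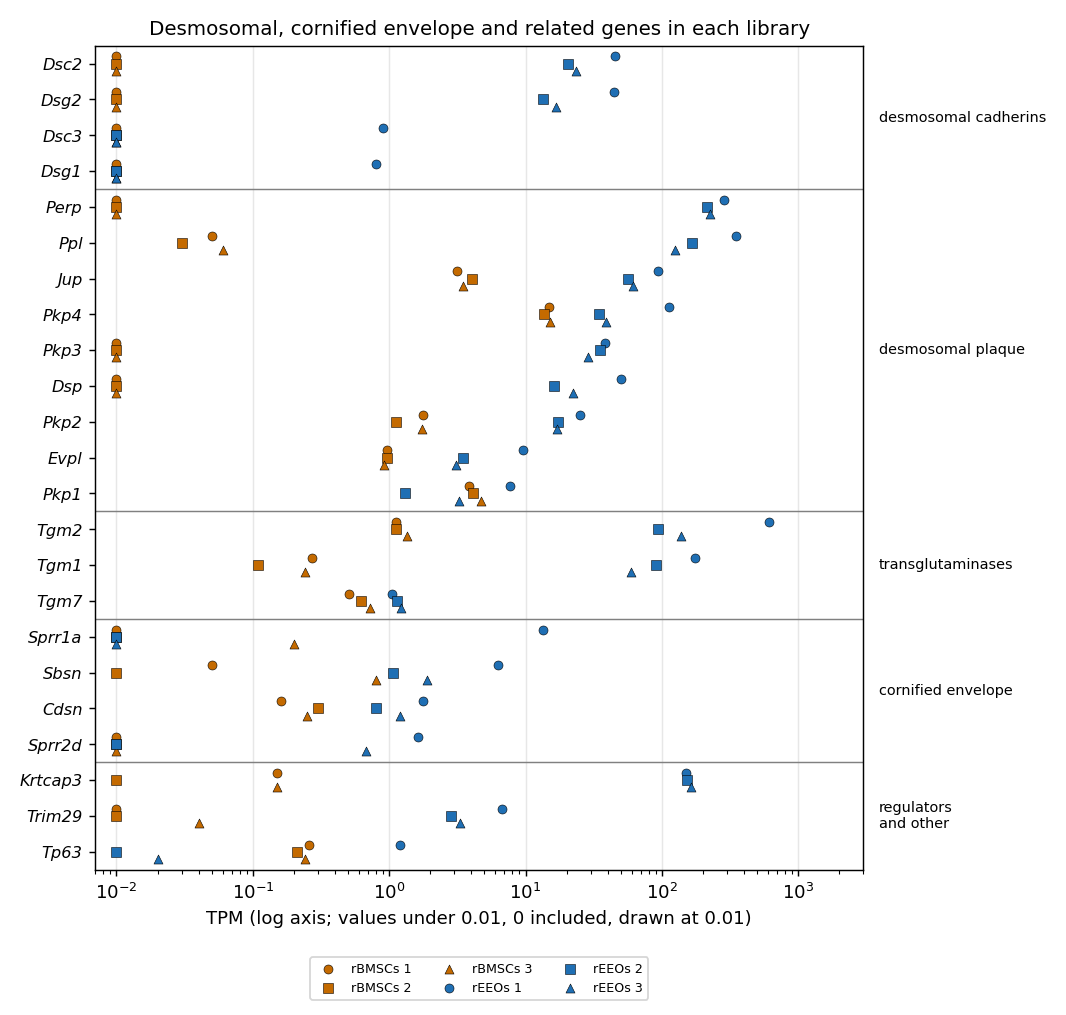
TPM (log axis) of the desmosomal, transglutaminase, cornified envelope and related genes in each library, with rBMSCs in orange, rEEOs in blue and the replicate number given by the symbol; values under 0.01 are drawn at 0.01. Dsc2, Dsg2, Perp, Pkp3 and Dsp have no read in rBMSCs and lie between 13.5 and 284 TPM in rEEOs, while for Pkp1 and Tp63 the groups overlap.

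Transglutaminases Tgm1 and Tgm2 were called higher. Tgm1, the membrane-bound enzyme of the cornified envelope, was at 174, 90.5 and 59.0 TPM in rEEOs and at 0.27, 0.11 and 0.24 TPM in rBMSCs. The ratio of pooled Tgm1 reads was 521 (95% exact interval from 341 to 843, counting error only; adjusted p = 1.83e-05, edgeR). Tgm2, the widely expressed tissue transglutaminase, was at 614, 93.8 and 137 TPM in rEEOs and at 1.13, 1.12 and 1.36 TPM in rBMSCs (log2 fold change 7.95, SE 0.76, adjusted p = 0.000216, edgeR). Tgm2 in replicate 1 was 3.81 times the mean of replicates 2 and 3 in CPM, and without that library its log2 fold change was 7.02. Tgm7 was low in both cell types, between 1.05 and 1.23 TPM in rEEOs and between 0.51 and 0.72 in rBMSCs. The log2 fold change of Tgm7 was 1.15 (SE 0.29, adjusted p = 0.0139, edgeR), and its adjusted p ran from 0.00189 to 0.0624 over its alternatives, the highest without rBMSCs replicate 1.

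The 4 cornified envelope genes taken by the rule, Sprr1a, Sprr2d, Sbsn and Cdsn, were read at low levels. Sprr1a, a small proline-rich protein, was at 13.4 TPM (85 reads) in rEEOs replicate 1, at 0 in replicates 2 and 3, and at 0, 0 and 0.20 TPM (1 read) in rBMSCs. Sprr2d was at 1.62, 0 and 0.68 TPM in rEEOs with no read in rBMSCs. Sbsn, the suprabasal protein suprabasin, was at 6.29, 1.07 and 1.88 TPM in rEEOs and at 0.05, 0 and 0.80 TPM in rBMSCs. Cdsn, the adhesive protein of cornified desmosomes, was tested and called higher, at 1.77, 0.80 and 1.21 TPM against 0.16, 0.30 and 0.25 TPM (log2 fold change 2.60, SE 0.37, adjusted p = 0.00123, edgeR). Its pooled reads gave a ratio of 6.26 (95% exact interval from 3.79 to 10.9, counting error only). Of 8 other cornified envelope and desquamation genes held, Scel was tested and was called higher, at 24.1, 29.6 and 22.0 TPM in rEEOs (log2 fold change 5.83, SE 0.37, adjusted p = 4.02e-05, edgeR), and Cnfn was at 6.90, 0 and 0 TPM.

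Among the regulators and other genes, Tp63 separated the organoid libraries too. It was at 1.20 TPM (53 reads) in rEEOs replicate 1, at 0 in replicate 2 and at 0.02 TPM (1 read) in replicate 3, and at 0.26, 0.21 and 0.24 TPM in rBMSCs (4, 10 and 11 reads). Replicate 1 lay above and replicates 2 and 3 lay below every rBMSCs library. Over all libraries the log2 fold change of Tp63 was 0.88 (SE 1.35, adjusted p = 0.590, edgeR). Without replicate 1 it was -3.59 (adjusted p = 0.0163, edgeR), which made Tp63 the only gene of the set called lower in rEEOs. Trim29, often expressed with Tp63 in basal cells, was at 6.73, 2.85 and 3.32 TPM in rEEOs and on 1 read in rBMSCs, a ratio of pooled reads of 416 (95% exact interval from 74.3 to 16472, counting error only; adjusted p = 0.000114, edgeR). Krtcap3, a membrane protein named for keratinocytes, was at 149, 153 and 163 TPM in rEEOs and at 0.15, 0 and 0.15 TPM in rBMSCs (ratio of pooled reads 1936, 95% exact interval from 536 to 15992, counting error only; adjusted p = 1.12e-05, edgeR). Its level in rEEOs was 155 ± 6.99 TPM (SD, n = 3), while its highest and lowest rEEOs libraries differed 1.51-fold in CPM.

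The partners of keratins and desmosomes were described from lists of their own. Counts of calls in these lists stand beside 16.3% of all genes tested called higher and 13.3% called lower. These counts are descriptions, since the filter fixed the direction of part of the genes. Itgb4, Lad1, Fam83h, Pof1b, Kazn, Bfsp1, Cdh1 and Nectin4 had under 10 reads in every rBMSCs library. Des and Nefm had no read in rEEOs. Of 9 other intermediate filament genes tested, 2 were called higher in rEEOs and 5 lower, and the lower ones included Vim, the filament protein of mesenchymal cells (171, 297 and 227 TPM in rEEOs, 5982, 6567 and 6375 TPM in rBMSCs, log2 fold change -4.45, SE 0.40, adjusted p = 0.000158, edgeR), and the muscle filament gene Des, with no read in rEEOs and between 66.4 and 75.8 TPM in rBMSCs. Vim, Des, Lmna, Nes and Nefm were the 5 called lower and moved opposite to the keratins. Synm and Bfsp1 were called higher, like most tested keratins (log2 fold changes 2.31 and 4.59, adjusted p = 0.0280 and 0.00381, edgeR). Of 7 hemidesmosome and plakin partners tested, 3 were called higher, Itgb4, Lad1 and Eppk1, while Plec and Dst, large linkers of filaments to the membrane, were lower with folds inside the threshold (log2 fold changes -1.45 and -1.59, adjusted p = 0.00470 and 0.0152, edgeR). Of 6 keratin-associated regulators tested, 3 were called higher and 1 lower, Ppfibp1, and Krtcap2 did not pass, at 37.3, 49.6 and 46.8 TPM in rEEOs and 43.9, 53.5 and 45.9 TPM in rBMSCs.

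Of 11 transcription factors of epithelial keratin programs tested, 7 were called higher and 4 lower, compared to 16.3% and 13.3% of all genes tested. However, Grhl1, Grhl2, Elf3, Ehf and Ovol2 had under 10 reads in every rBMSCs library. Zeb1, Zeb2, Snai2 and Twist1 had under 10 in every rEEOs library. The filter therefore fixed the direction of these genes, and the counts are descriptions. Klf4 and Klf5 were read in both cell types and were called higher (log2 fold changes 2.09 and 2.67). Among the higher ones were Elf3 (338, 228 and 465 TPM in rEEOs, no read in rBMSCs) and Ehf (238, 45.8 and 82.5 TPM in rEEOs, at most 0.10 in rBMSCs), both Ets factors of epithelia. The 4 lower ones were Zeb1, Zeb2, Snai2 and Twist1, repressors or regulators known from epithelial-mesenchymal transition, and Snai2 was at 0.32, 0 and 0 TPM in rEEOs and at 76.1, 61.2 and 67.9 TPM in rBMSCs. Of 7 adherens junction partners tested, 2 were called higher (Cdh1 and Nectin4) and 1 lower (Cdh3). The catenins, which bind classical cadherins in both epithelial and mesenchymal cells, did not pass: Ctnnb1 had a log2 fold change of 0.07 (SE 0.17, adjusted p = 0.728, edgeR), in contrast to 4.49 for the related Jup. The lists overlap one another, since Vim, Des, Cdh1, Elf3 and Grhl2 each stand in more than 1 of them.

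Transcript length moved with the difference between rEEOs libraries. Over 10492 genes, the log2 ratio of CPM + 1 in replicate 1 to that in replicates 2 and 3 had a Spearman correlation of 0.43 with effective transcript length, and its median was -0.40 over the 2623 shortest genes and 0.45 over the 2623 longest. These are correlations across genes of the same libraries and carry no test. Over the 25 tested genes of the set with a length, this ratio ran from -0.66 for Krt19 to 2.01 for Tp63, and with the trend over all genes removed from -1.11 for Tgm7 to 1.77 for Tp63. For long transcripts the removal took away much of the excess, from 0.98 to 0.29 for Dsp and from 0.76 to 0.21 for Ppl. For others it took away little or none: Tgm2 went from 1.93 to 1.73, and Krt80, a short transcript, from 1.16 to 1.47. Levels set between genes within rEEOs replicate 1, and the ratios Krt7 over Krt8 and type II over type I given for it, were read with this trend present, and its part in them was not tested.

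**Figure D5:**
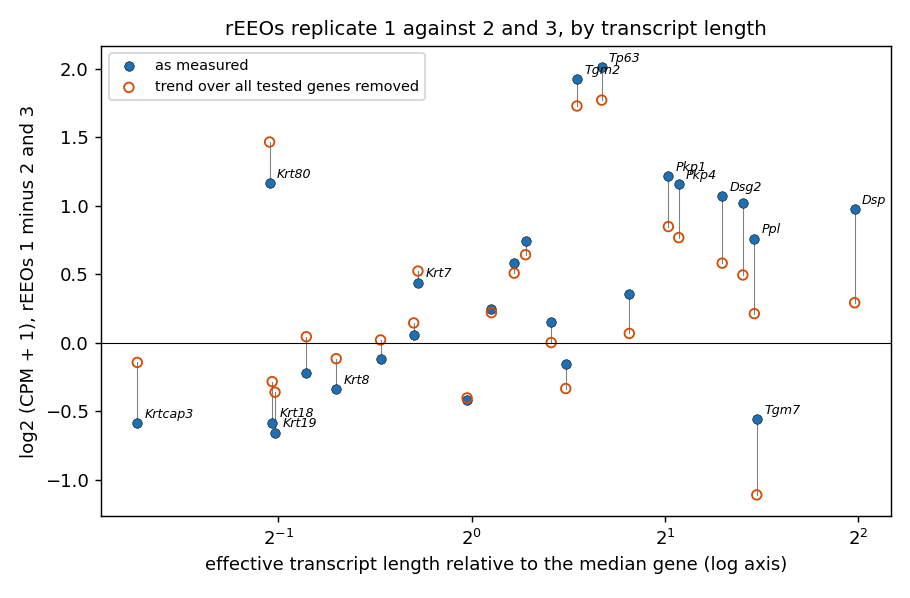
Log2 ratio of CPM + 1 in rEEOs replicate 1 to the mean of replicates 2 and 3 against the effective transcript length relative to the median gene (log axis), for the 25 tested genes of the set with a length. Filled points are the values as measured and open circles those after the trend over all tested genes was removed. After the removal Tp63, Tgm2 and Krt80 are at 1.47 or higher, Krt80 having risen, while Dsp and Ppl fall to 0.29 and 0.21.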

How the data were processed

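The authors extracted RNA from 3 rEEOs and 3 rBMSCs samples, enriched poly(A) RNA and sequenced single-end reads on a DNA nanoball platform. The submitters' processing notes name Trim Galore, Bowtie2 2.2.5 and Rnor_6.0, and RSEM was used for quantification. The table deposited by the authors holds per gene an expected count for every library (unscaled, with reads shared between similar transcripts), a TPM and an FPKM. FPKM was used only to derive relative effective lengths. The copy analysed ends partway, its TPM summing to between 81.3% and 82.7% of a library, and genes outside it were not analysed here.

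Expected counts were rounded and tested with edgeR 4.0.16 in R 4.3.3 (TMM, glmQLFit, glmQLFTest, cell type as the only term, Benjamini-Hochberg adjustment over 10607 genes). TMM factors were 0.866 to 0.885 (rBMSCs) and 1.10 to 1.20 (rEEOs). The SE of a log2 fold change was taken from it and the F statistic. The scripts were tested on simulated data. Bounds ("at least") are against 3 counts in each library of the cell type without reads (0.181 to 0.262 CPM), and intervals of pooled read ratios are exact conditional ones at 95%, on reads scaled by TMM; both cover counting error only. Members were matched to RefSeq genes of GRCr8 by ID (43 of 43, with the same symbols).

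The genes and lists were chosen with earlier results of these data known. Full values were fixed for members of at least 50 TPM on average, members spanning 10-fold over rEEOs, and stratified keratins; values of Dsc2, Dsg2, Dsp, Pkp1, Pkp2, Pkp3, Evpl, Krt23, Krt80, Trim29, Tgm7, Cdsn, Sprr2d and Nt5e were added after they were seen. From other lists, values were fixed for at most 4 genes of highest TPM. Those of Nectin1 and Col17a1, which are not among these, were added after they were seen. Alternatives were DESeq2 1.42.0, its size factors in edgeR, library size only, other count filters, limma 3.58.1 on log2(TPM + 1) and log2(TPM + 0.1), other fold thresholds, each library left out and a replicate block; a length correction and a looser filter without rEEOs replicate 1 were added after the data were seen. Figures and sums were made in Python 3.11.15 (matplotlib 3.10.9, statsmodels 0.14.6, scipy 1.17.1, pandas 2.3.3).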

Additional observations from a re-analysis of the deposited data

How the results depend on the processing

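For the 26 tested genes, 405 log2 fold changes were recomputed, of which 392 kept their direction and their call (adjusted p and fold together). The uncalled Tgm7 crossed the adjusted p alone, at 0.0624 without rBMSCs replicate 1. Pkp4 fell below the fold threshold with limma on log2(TPM + 1) (1.81) and log2(TPM + 0.1) (1.87), without rEEOs replicate 1 (1.74) and with the looser filter as well (1.71), and Evpl with limma on log2(TPM + 1) (1.57). The genes that did not pass changed sign: Pkp1 to -0.25 and -0.38 with limma, -0.47 without rEEOs replicate 1 and -0.50 with the looser filter as well, and Tp63 to -3.59 and -3.62 in the latter settings, where it was called lower, so that 1 gene of the set was called lower in place of 0. Over the libraries left out, Pkp1 ran from -0.47 to 0.48, Tp63 from -3.59 to 1.45 and the number called lower from 0 to 1. The number called higher ran from 18 (limma, log2(TPM + 1)) to 28 (at least 1 count). Over all genes, 1733 higher became 1121 with limma on log2(TPM + 1), 2663 above a log2 fold change of 1 and 3529 with no fold threshold, and 1412 lower became 2287 and 3199 in the latter settings. With library size only, 2002 genes were higher and 1206 lower, and of the set 22 and 0 were. The mean keratin sum was 4267 CPM in place of 3463 TPM, other units of the same reads. Replicate numbers did not pair the libraries (correlations of deviations 0.17, 0.19 and -0.17), and with a replicate block 22 and 0 of the set and 1710 and 1521 genes were called, with Pkp1 at -0.13 and Tp63 at -0.41. Beyond the named cases the cause of a change was not tested. Depth leaves genes under about 3 reads a library undecided.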

Other observations

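Members lie in runs along the genome (RefSeq order, GRCr8) that did not share 1 pattern. Krt13, Krt15 and Krt19 are consecutive genes: Krt19 was at 587, 623 and 692 TPM in rEEOs replicates 1, 2 and 3, whereas Krt15 was at 27.0, 0.35 and 0.29 TPM and Krt13 at 3.43, 0 and 0 TPM. Krt16 and Krt17 are adjacent, with Krt17 at 36.4, 22.6 and 38.4 TPM and Krt16 at 7.13, 0 and 0.06 TPM. Krt80 and Krt7 are adjacent and both were highest in rEEOs replicate 1, at 43.0 and 795 TPM. Krt78 lies beside Krt8, at 0.42, 0.02 and 0.02 TPM in rEEOs. Trim29 lies beside Nectin1, an adherens junction gene that was at 2.13, 0.01 and 0.12 TPM in rEEOs and between 3.06 and 3.15 TPM in rBMSCs, and that did not pass between cell types (log2 fold change -2.04, SE 1.16, adjusted p = 0.166, edgeR). Col17a1, a hemidesmosome collagen of basal cells, was at 3.54, 0.15 and 0.26 TPM in rEEOs and between 0.74 and 0.81 TPM in rBMSCs (log2 fold change 0.77, SE 1.01, adjusted p = 0.527, edgeR). Like Krt5 and Tp63, both were highest among rEEOs in replicate 1. These genes were picked after their values were seen.

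Markers of other cell types were read from lists of their own. Of the endothelial markers held, Pecam1 and Cdh5 were at most at 0.13 TPM in any library, and Tek was called lower in rEEOs. The 3 smooth muscle markers held, Des, Cnn1 and Smtn, were called lower in rEEOs, with summed levels between 348 and 364 TPM in rBMSCs and between 2.69 and 11.1 TPM in rEEOs. Msln, a mesothelial and epithelial surface protein, did not pass, at 113, 166 and 100.1 TPM in rEEOs and 145, 155 and 149 TPM in rBMSCs (log2 fold change 0.05, SE 0.29, adjusted p = 0.887, edgeR), while Wt1 was called lower. Tek, Des, Cnn1 and Wt1 had under 10 reads in every rEEOs library, so the filter fixed their direction.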
